A study of Drosophila melanogaster with 10 samples.

Results

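Overexpression of the FruCOM isoform of fruitless in adult oenocytes was examined in 4 of the 10 RNA sequencing libraries of the series, chosen by their labels as the 2 libraries of oeno>fru OE and the 2 libraries of control. Of 13986 genes listed, 11601 passed the filter on low counts and were tested. In both groups the oenocyte driver prom-E800-Gal4 (oeno-Gal4) was present. Control carried UAS-mCD8-GFP beside it according to the labels, and oeno>fru OE carried UAS-FruCOMB with no GFP transgene named. The flies were males reared at 25°C until eclosion and kept at 29°C for the next 7 days, and oenocytes were dissected from the adult abdomen. The other 6 libraries, 2 for each of the hairpins VDRC330035, BDSC#31593 and VDRC105005 against fru under the same driver, served as a second reference, since they share no library with control. In males of 1 overexpression genotype, the effects of FruCOM, of the insertion and of the genetic background cannot be told apart. Nor can the effect of the GFP transgene, named for control and not for oeno>fru OE. The white gene, a common transgene marker, already differed, with TMM-rescaled TPM values (TPM, a length-corrected relative abundance, put on a common scale between libraries) of 66 and 65.3 in control and 10.7 and 10.6 in oeno>fru OE. The eye colour genes v (0.66) and ry (0.70) and the tiptop gene tio (1.08) were higher on the log2 scale.

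Oenocytes are secretory cells beneath the abdominal cuticle that make very long chain fatty acids and turn them into cuticular hydrocarbons, among them the sex pheromones. Acetyl-CoA is carboxylated and built into fatty acids, which elongases lengthen, desaturases modify and fatty acyl-CoA reductases convert to aldehydes and alcohols, before the P450 enzyme Cyp4g1 makes the hydrocarbon. The fruitless gene encodes BTB-domain zinc finger transcription factors. Its male-specific isoforms are known from courtship neurons, whereas FruCOM isoforms are made in both sexes.

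Gene counts totalled 27225089 and 34243324 in control and 23415354 and 36378216 in oeno>fru OE. Replicates were close, the median SD between the libraries of a group being 0.0588 on the log2 scale in control and 0.0586 in oeno>fru OE, and nothing in the labels says whether they came from separate cohorts of flies, so p-values measure the spread between these libraries. An exact permutation test of 2 libraries against 2 cannot give a two-sided p below 0.333, and p-values therefore came from edgeR's quasi-likelihood model over all genes, adjusted by the Benjamini-Hochberg method. Genes were called where the adjusted p lay below 0.05, and 3638 were called in the higher direction (31.4% of those tested) and 3906 in the lower direction (33.7%). These shares are the background for all counts of list members below, and counts near them say nothing particular about a list. A differentially expressed gene (DEG) also had to reach an adjusted p of 0.001 and a 4-fold change, and 155 genes did so upward (1.34%) and 324 downward (2.79%). Scaling by library size alone in place of TMM moved the median log2 fold change of all genes from 0.04 to 0.21, and 61.2% of calls were then higher against 48.2%. Small changes are therefore relative to the TMM scale. Fewer oenocytes in a dissection and less RNA per cell cannot be told apart in bulk samples.

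The transgene was visible at fru itself. The level of fru (FBgn0004652, chromosome 3R from 18414273 to 18545586 on the BDGP6 genome, as for all positions here) was 2.26 and 2.34 in control and 43.5 and 43.3 in oeno>fru OE as TMM-rescaled TPM, so the groups did not overlap. Its log2 fold change was 4.34 (SE 0.037, edgeR adjusted p = 2.52e-16). The 6 libraries labelled fru RNAi ranged from 1.60 to 7.32, also below both overexpression libraries, and 4 of them lay above both control libraries. Reads from the transgene count on fru, so endogenous and transgenic transcripts were not separated.

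Lower DEGs tended to be genes that control oenocytes express strongly, and higher DEGs genes at low control levels. DEGs that were lower had a median control level of 29.7 TMM-rescaled TPM, against 7.1 over all genes tested, and 107 of the 324 exceeded 100. DEGs that were higher had a median control level of 0.902, and 3 of the 155 exceeded 100. Lower DEGs together held 7.86% and 7.89% of all expression in the control libraries and 0.787% and 0.788% in the overexpression libraries. The higher DEGs went from 0.158% and 0.153% to 1.07% in each overexpression library. Since the control libraries enter both the choice of DEGs and these levels, the levels are a description only. A decline of at least 32-fold was fitted for 49 genes and a rise of that size for 10.

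**Figure D1:**
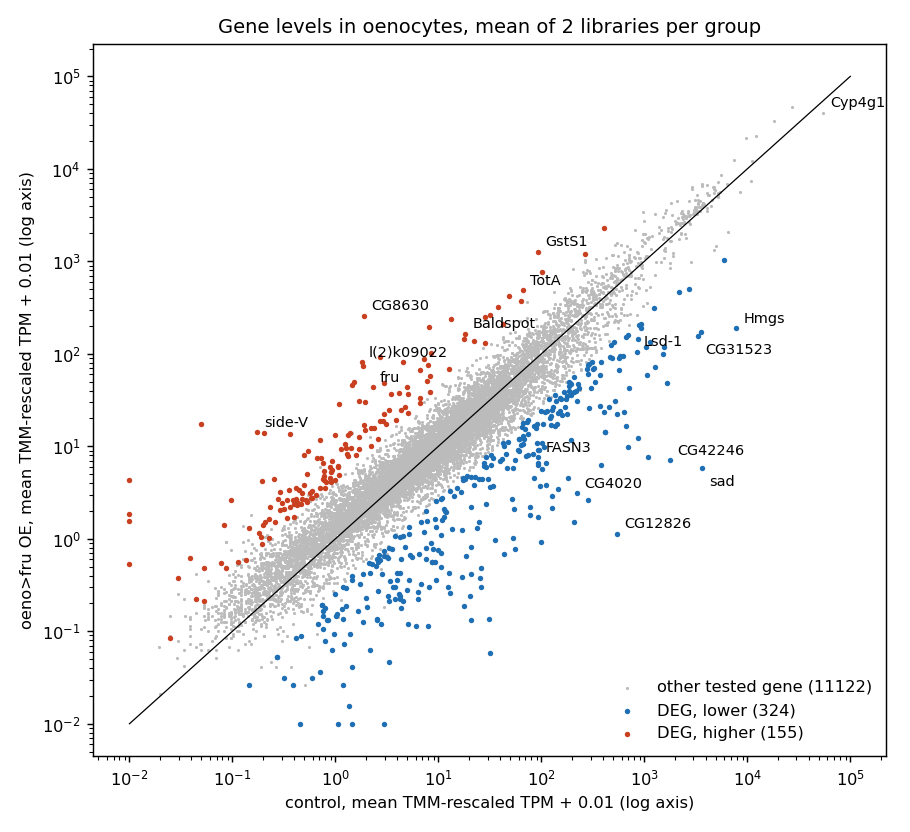
Mean level of each of 11601 tested genes in control (x axis) and oeno>fru OE (y axis), as TMM-rescaled TPM plus 0.01 on log axes, with the line of equal levels. The 324 lower DEGs (blue) reach far into the highly expressed genes, whereas most of the 155 higher DEGs (red) lie at low control levels.

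Against the second reference the same overexpression libraries gave 3446 genes called higher (28.6% of 12062 tested) and 4352 called lower (36.1%). With library size alone these were 5083 and 3028. Of the 324 lower DEGs, 291 were also called lower against the libraries labelled fru RNAi, 29 were not called and 4 were called higher. Of the 155 higher DEGs, 135 were also called higher, 17 were not called and 3 were called lower. In 257 of the 324 lower DEGs both overexpression libraries lay below all 6 of those libraries, compared with 21.2% of all genes tested. In 119 of the 155 higher DEGs they lay above all 6, compared with 27.0%. Both comparisons rest on the same 2 overexpression libraries and so are not independent. The second contrast used the mean of the hairpin genotypes. Its p-values measure the spread between replicate libraries of a genotype and not the differences between hairpin lines.

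The steepest decline belonged to shadow (sad), which encodes the ecdysteroid-producing P450 enzyme Cyp315a1 (FBgn0003312, chromosome 3R from 11877235 to 11879754). Its TMM-rescaled TPM was 3634 and 3610 in control and 6.09 and 5.58 in oeno>fru OE, and 416 to 1193 in the libraries labelled fru RNAi. The log2 fold change against control was -9.42 (SE 0.0281, edgeR adjusted p = 9.97e-20). An abundant transcript of control oenocytes was thus at a trace level in both overexpression libraries. Other genes of the ecdysteroid and juvenile hormone list did not share this fall. Of 20 tested, 8 were called higher and 6 lower, with a median of 0.21, beside 31.4% higher and 33.7% lower over all genes tested. Among those that rose were the juvenile hormone esterase gene Jhe at 2.38, Cyp6g2 at 1.77 and the epoxide hydrolase gene Jheh2 at 1.22. Jhe and Cyp6g2 were also higher than the libraries labelled fru RNAi (1.35 and 1.89), but Jheh2 was lower (-0.26). Jheh2 had TMM-rescaled TPM values of 303 to 351 there, 288 and 293 in oeno>fru OE and 111 and 117 in control.

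Several of the next largest falls were in genes that carry an annotation number only. CG12826 had TMM-rescaled TPM values of 542 and 544 in control and 1.28 and 0.977 in oeno>fru OE, a log2 fold change of -9.05 (SE 0.0622, edgeR adjusted p = 3.51e-17). CG42246 went from 1780 and 1797 to 8.35 and 5.8, a log2 fold change of -8.02 (SE 0.05, edgeR adjusted p = 1.6e-17). Both were intermediate in the libraries labelled fru RNAi, at 17.2 to 43.6 for CG12826 and 212 to 464 for CG42246. CG17929 fell from 30.7 and 31.2 to 0.116 and 0.137 (-8.01 on the log2 scale), and CG13840 from 21 and 20.7 to 0.147 and 0.095 (-7.60). The cuticle protein gene Ccp84Ae had 1073 counts over the control libraries and 2 over the overexpression libraries, a ratio of 589 with an exact 95% interval of 163 to 4870 that covers counting error only. Its level was also low in the libraries labelled fru RNAi, at 0.069 to 0.577 as TMM-rescaled TPM, against 31.8 and 32.1 in control. CG17097 had 249 counts over the control libraries and 1 over the overexpression libraries, a ratio of 273 with an interval of 48.6 to 10800. It ranged widely in the libraries labelled fru RNAi, from 0.682 to 7.51 as TMM-rescaled TPM against 1.2 and 1.49 in control. CG5386 had no count in either overexpression library and was at least 20.3-fold lower, taking 3 counts per library as the floor. The libraries of the 2 groups did not overlap in any of these genes, which follows from their choice as DEGs and is a description only.

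The largest rises began from low levels. CG8630, of the fatty acyl desaturase family (FBgn0038130, chromosome 3R from 13279721 to 13284527), had TMM-rescaled TPM values of 2.06 and 1.72 in control and 257 and 261 in oeno>fru OE, a log2 fold change of 6.98 (SE 0.046, edgeR adjusted p = 2.4e-17). The libraries labelled fru RNAi stayed at 0.69 to 1.6. The sidestep family gene side-V, which encodes an immunoglobulin superfamily protein, had 0.145 and 0.184 in control and 14.3 and 14.1 in oeno>fru OE, a log2 fold change of 6.30 (SE 0.0876, edgeR adjusted p = 1.94e-14). Levels of l(2)k09022 went from 1.78 and 1.79 to 83 and 81.9 (5.39), those of CG15239 from 0.213 and 0.175 to 13.6 and 14 (6.02) and those of CG12896, a peroxiredoxin family gene, from 1.92 and 1.73 to 73.7 and 73.9 (5.24). These genes lay below 7.1, the median control level of all genes tested, in control oenocytes and above it under overexpression. CG12133 had 2 counts over the control libraries and 922 over the overexpression libraries, a ratio of 420 with an exact 95% interval of 116 to 3470.

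The remaining 2 of the 8 largest rises are uncertain. Ada1-1, for a subunit of the SAGA chromatin complex, had no count in control and was at least 33.4-fold higher in oeno>fru OE, while its near copy Ada1-2 had 7 and 6.53 in control and 6.9 and 8.03 in oeno>fru OE and was not called. Sdic3, of the sperm dynein intermediate chain cluster, had no count in control and was at least 34.9-fold higher, whereas its near-identical copies Sdic1 and Sdic4 were not called and Sdic2 was at 1.07, a call lost without control replicate 1 (0.83) or without oeno>fru OE replicate 2 (0.37). The authors' estimates divide reads among such copies.

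**Figure D2:**
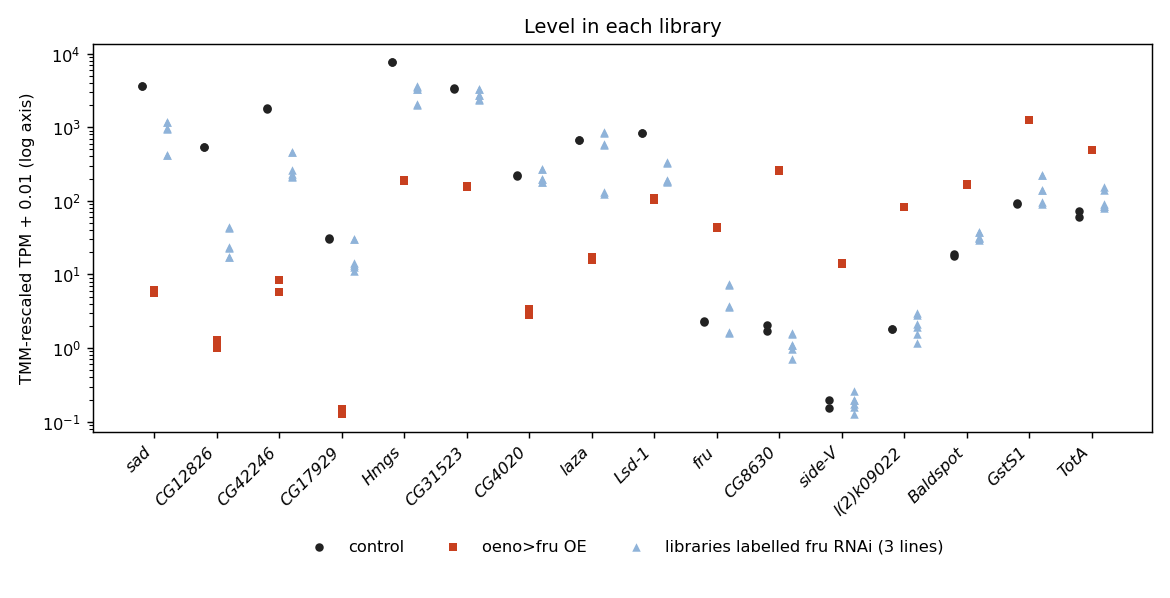
Level of 16 genes in each library, as TMM-rescaled TPM plus 0.01 on a log axis, for 2 control libraries (circles), 2 oeno>fru OE libraries (squares) and 6 libraries labelled fru RNAi (triangles). The overexpression libraries lie apart from both references in each gene shown, below them from sad to Lsd-1 and above them from fru to TotA. All 16 genes were picked among DEGs, so the separation from control follows from that choice.

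In TMM-rescaled TPM the main loss was in Cyp4g1, the enzyme of the last step of hydrocarbon synthesis and the most abundant nuclear transcript of control. Its TMM-rescaled TPM was 53859 and 54203 in control and 40225 and 40493 in oeno>fru OE, so that it kept most of its level, with a log2 fold change of -0.55 (SE 0.0124, edgeR adjusted p = 1.7e-12). It did not differ by the test from the libraries labelled fru RNAi, at 0.02 (SE 0.0265, edgeR adjusted p = 0.551), but these spanned 8951 to 80361. Hmgs, which encodes the hydroxymethylglutaryl-CoA synthase of the mevalonate and ketone body pathways (FBgn0010611, chromosome 2R from 16336090 to 16341242), dropped from 7771 and 7775 to 191 and 188, a log2 fold change of -5.51 (SE 0.0174, edgeR adjusted p = 9.97e-20). No transcript as abundant in control fell as far. Hmgs overlaps Vha44, and the counting is not stated to use strand. The other large losses were in CG30008, an elongase gene (5983 to 1023 as group means, -2.67 on the log2 scale), CG2765 (6461 to 2101, -1.82), CG10433 (4927 to 1457, -1.89) and sad.

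The 5 largest gains in level were in genes of the mitochondrial genome. All 13 genes of the mitochondrial genome tested were called higher (median log2 fold change 0.74, against 0.04 over all genes), and they took 15.2% and 15.4% of expression in oeno>fru OE against 9.09% and 9.02% in control. The largest gain was in mt:CoIII, from 27176 and 27329 to 46845 and 47491 as TMM-rescaled TPM (0.68 on the log2 scale). mt:CoI, like it a subunit of cytochrome oxidase, had 18141 and 18189 in control and 32940 and 33154 in oeno>fru OE, and mt:Cyt-b, of the cytochrome bc1 complex, had 9807 and 9728 in control and 21638 and 21654 in oeno>fru OE. Their log2 fold changes were 0.74 and 1.03, with mt:CoII at 0.79, mt:ATPase6 at 0.63, mt:ND4 at 1.25, mt:ND5 at 1.10 and mt:ND6 at 0.92. In the libraries labelled fru RNAi the mitochondrial share was 8.26% to 11.8%, below both overexpression libraries. Cytosolic ribosomal protein genes had a summed TMM-rescaled TPM of 257638 and 255993 in control and 303660 and 301465 in oeno>fru OE. Their median log2 fold change was 0.12, with single genes from -2.09 to 0.92. Nuclear genes of oxidative phosphorylation moved less, 49 of 91 being called higher and 10 lower with a median of 0.15. ATPsynbeta rose by 1.03, COX6AL2 by 0.94, while COX7A and SdhB were at -1.01 and -0.98. Adh, for alcohol dehydrogenase, was the nuclear gene with the largest gain, from 2868 and 2907 to 6420 and 6257 (1.01).

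Genes of fatty acid and hydrocarbon synthesis fell together, mostly by less than 4-fold. Of 21 genes in this list, 17 were called lower and 3 higher (median -0.52 on the log2 scale). The one DEG was FASN3, an oenocyte fatty acid synthase gene, with TMM-rescaled TPM values of 92.9 and 93.4 in control and 7.72 and 7.49 in oeno>fru OE and a log2 fold change of -3.75 (SE 0.0245, edgeR adjusted p = 2.4e-17). The libraries labelled fru RNAi lay above control, at 216 to 431, and the log2 fold change against them was -5.51. SREBP, the transcription factor of lipid synthesis genes, had 174 and 176 in control and 59.2 and 58.4 in oeno>fru OE (-1.70). ATPCL, for the ATP citrate lyase that supplies acetyl-CoA, had 434 and 438 in control and 215 and 217 in oeno>fru OE (-1.14). Hnf4, a nuclear receptor that controls lipid genes, had 170 and 168 in control and 93.2 and 93 in oeno>fru OE (-0.89).

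Some abundant genes of the list moved little. The log2 fold change was -0.07 for the acetyl-CoA carboxylase gene ACC, -0.17 for FASN1, -0.23 for FASN2 and -0.33 for the desaturase gene Desat1, but with library size alone ACC was at 0.10 and FASN1 at 0.01. On the TMM-rescaled TPM scale ACC had a mean level of 253 in control and 264 in oeno>fru OE, the reverse order. Fad2, which encodes the female-biased desaturase F, went from 19.2 and 18.6 to 8.48 and 10.1 (-1.13) but was higher than in the libraries labelled fru RNAi (0.91). The steroid and fatty acid reductase gene spidey (-0.95) and the electron carriers Cyt-b5 (-0.79) and Cpr (-0.70) were lower. Sc2, for the enoyl reductase of elongation, rose by 0.37.

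The elongases spread widely in both directions. Of 20 tested, 12 were called lower and 6 higher, with a median of -0.46, and their summed TMM-rescaled TPM was 12794 and 12935 in control and 3900 and 3923 in oeno>fru OE. That sum was 8521 to 13310 in the libraries labelled fru RNAi. CG31523, an elongase gene that was the second most abundant of the family in control (FBgn0051523, chromosome 3R from 4465421 to 4479207), had 3331 and 3375 in control and 160 and 156 in oeno>fru OE and a log2 fold change of -4.61 (SE 0.0179, edgeR adjusted p = 6.66e-19). The most abundant, CG30008, had 5951 and 6015 in control and 1026 and 1020 in oeno>fru OE, and eloF, whose product is needed for the long female pheromone dienes, had 46.3 and 44.8 in control and 8.45 and 7.99 in oeno>fru OE (-2.59). CG18609 (-2.03) and CG17821 (-2.08) also fell, and CG16904 fell by less (-0.64). Baldspot, for the relative of mammalian ELOVL6 that lengthens palmitate, went the other way, with 17.8 and 18.8 in control and 163 and 167 in oeno>fru OE and a log2 fold change of 3.04 (SE 0.0306, edgeR adjusted p = 1.03e-15). All 12 elongase genes that were lower than control were also lower than the libraries labelled fru RNAi, and 5 of the 6 that were higher were higher than these too.

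Fatty acyl-CoA reductases split in both directions. Of 14 tested, 9 were called higher and 3 lower, with a median of 0.41. Against the libraries labelled fru RNAi 4 were called higher and 7 lower, with a median of -0.08. CG4020 fell from 222 and 220 to 2.82 and 3.37 as TMM-rescaled TPM, a log2 fold change of -6.24 (SE 0.0456, edgeR adjusted p = 6.63e-17). CG17560 fell from 608 and 626 to 93.9 and 93.5 (-2.84), and wat, which encodes the reductase waterproof, from 22.7 and 24.2 to 7.75 and 7.46 (-1.76). CG14893 rose from 14.5 and 16.8 to 65.3 and 67.4 (1.95). The abundant members Sgp and CG10097 rose by 1.30 and 1.25, and FarO, an oenocyte reductase gene, by 0.19. The summed level of the family was 2854 and 2891 in control and 4376 and 4363 in oeno>fru OE, higher because of its abundant members. That sum was 2326 to 5610 in the libraries labelled fru RNAi. The desaturases were split as well, with 6 of 8 called lower, among them the abundant CG15531 (-0.88) and Desat2 (-1.04, or -0.69 and not called without oeno>fru OE replicate 2), and CG8630 and CG9743 higher.

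**Figure D3:**
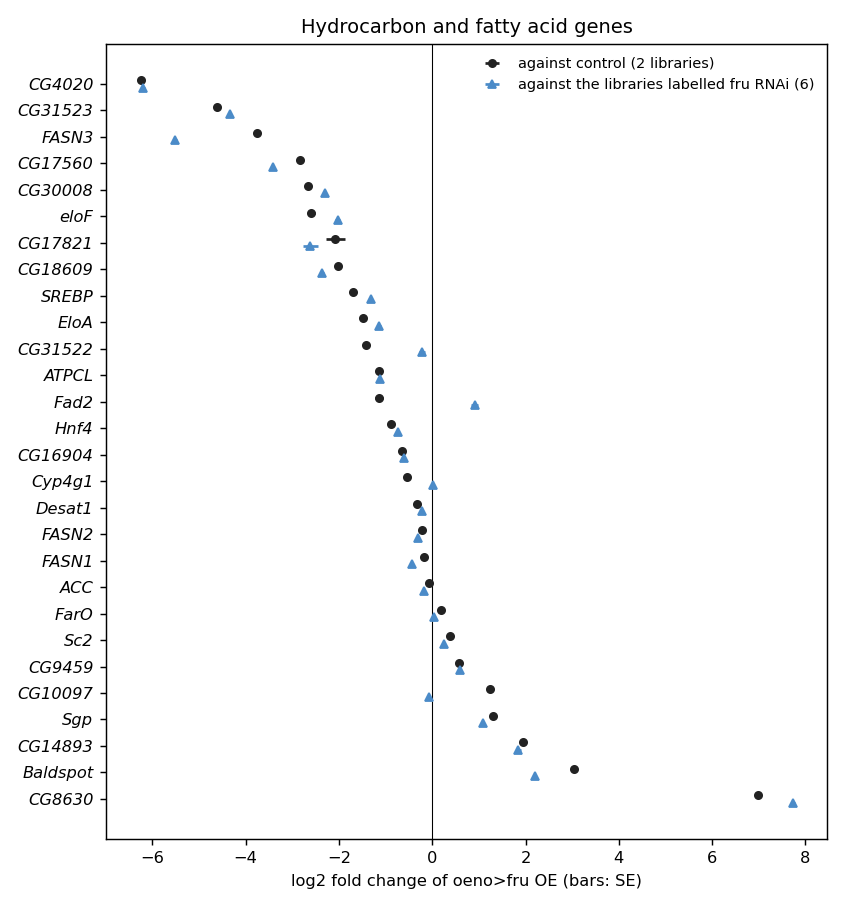
Log2 fold change of 28 hydrocarbon and fatty acid genes in oeno>fru OE against 2 control libraries (circles) and against 6 libraries labelled fru RNAi (triangles), with SE as bars that are mostly smaller than the points. CG4020 and CG31523 are the lowest against control and CG8630 the highest, and Fad2 lies on opposite sides of 0 against the 2 references.

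Genes that handle stored lipid fell in part. Of 26 genes for lipid storage and lipoproteins, 15 were called lower and 7 higher. Their median of -0.10 turned positive with library size alone and with limma. Agpat1, for an acyltransferase of phospholipid and triglyceride synthesis, was at 1.35. Lsd-1, for the perilipin that coats lipid droplets (FBgn0039114, chromosome 3R from 23763857 to 23766662), had TMM-rescaled TPM values of 839 and 842 in control and 108 and 103 in oeno>fru OE, a log2 fold change of -3.11 (SE 0.0233, edgeR adjusted p = 8.27e-17). Hsl, for hormone-sensitive lipase, was at -1.32 and Npc1a, for a sterol transporter, at -1.27. The brummer lipase gene bmm (-0.18) and Lsd-2 (-0.08), for the other perilipin, moved little, and with library size alone Lsd-2 was at 0.09 and bmm was not called. Without oeno>fru OE replicate 2, Lsd-2 was at -0.05 and not called. Among the acyl-CoA synthetases and carriers, 12 of 21 were called higher and 5 lower, with Acsx4 at -3.79 and Acsx3 at 1.62. The fatty acid binding protein gene fabp had 2155 and 2180 in control and 456 and 468 in oeno>fru OE (-2.32), and Fatp3, of the fatty acid transport family, had 58.2 and 59.4 in control and 8.8 and 9.46 in oeno>fru OE (-2.80). Fatp3 was as low in the libraries labelled fru RNAi, at 7.85 to 10, with a log2 fold change against them of -0.10 (not called).

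Peroxisomal genes, whose products shorten very long chain fatty acids, were lower in 19 and higher in 9 of 33 tested, with a median of -0.25. The docking factor gene Pex13 had 110 and 107 in control and 22.6 and 24.1 in oeno>fru OE as TMM-rescaled TPM (-2.33). The acyl-CoA oxidase genes Acox3 and Acox57D-p were at -1.14 and -0.99. The lipid phosphate phosphatases, which remove phosphate from phosphatidic acid and its relatives, had a median of -2.48, with 7 of 8 called lower. lazaro (laza) led them, from 666 and 662 to 15.9 and 17, a log2 fold change of -5.45 (SE 0.027, edgeR adjusted p = 3.26e-18). The exception was CG11425, at 1.59. Against the libraries labelled fru RNAi the median of the 8 phosphatase genes was only -0.26, with 4 called lower and 2 higher.

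The mevalonate pathway, which makes the precursors of juvenile hormone and other isoprenoids in insects, did not fall as a whole to the extent that Hmgs did. Of 9 genes, 6 were called lower and 1 higher, with a median of -0.52. Mvd, for the last decarboxylase, was at -1.61, while Fpps was not called. In heme synthesis the first enzyme, aminolevulinate synthase, also fell furthest. Alas had TMM-rescaled TPM values of 2698 and 2682 in control and 507 and 495 in oeno>fru OE and a log2 fold change of -2.55 (SE 0.0167, edgeR adjusted p = 2.4e-17). Pbgs was at -0.66, while FeCH, for the final ferrochelatase, rose by 0.99. The lists for desaturases, mevalonate, heme, endoplasmic reticulum translocation and Turandot genes were drawn up after values had been seen.

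Genes of the endoplasmic reticulum fell almost as a block. In the translocation and signal peptide list, drawn up after values had been seen, all 18 genes tested were called lower (median -1.27 on the log2 scale). With the same overexpression libraries, all 18 were lower than the libraries labelled fru RNAi as well, with a median of -1.28. TRAM, which helps nascent chains enter the membrane, had 156 and 153 in control and 32.4 and 32.9 in oeno>fru OE (-2.35). The channel gene Sec61beta had 705 and 716 in control and 197 and 213 in oeno>fru OE, a log2 fold change of -1.90 (SE 0.0317, edgeR adjusted p = 9.85e-14). Sec61alpha, for the channel's main subunit, had 225 and 226 in control and 82.7 and 86.2 in oeno>fru OE, a log2 fold change of -1.54 (SE 0.0244, edgeR adjusted p = 6.51e-14). The signal peptidase gene Spase25 (-1.78) and the receptor gene SrpRbeta (-1.74) fell to a like extent. In the list for folding and stress, 24 of 27 were called lower and 1 higher, with a median of -0.73, and Sec61alpha, Sec61beta, Sec61gamma and Sec63 stand in both lists. Xbp1, the transcription factor of the unfolded protein response, had 718 and 725 in control and 267 and 275 in oeno>fru OE and a log2 fold change of -1.54 (SE 0.0187, edgeR adjusted p = 5.64e-15). Ero1L, for the oxidase of disulfide formation, was at -1.39 and the chaperone gene Hsc70-3 at -0.87. The 1 gene that rose was ERp60 (0.31).

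Immune genes moved in the opposite direction. Of 48 genes of humoral immunity, 43 were called higher and 3 lower (median 0.96 on the log2 scale), and their summed TMM-rescaled TPM was 11138 and 11268 in control and 22920 and 22878 in oeno>fru OE. The range of that sum in the libraries labelled fru RNAi was 12740 to 14670. Drosocin (Dro), an antibacterial peptide gene, had 29.8 and 27.4 in control and 135 and 129 in oeno>fru OE (2.14), and Drsl4, of the drosomycin family, had 199 and 205 in control and 829 and 830 in oeno>fru OE (1.97). The infection-induced gene edin rose from 0.931 and 0.485 to 8.95 and 6.04 (3.31). The receptor gene PGRP-LC was at 1.24, and the transcription factor genes Rel and Dif were at 0.61 and 0.36. IM18, of the immune-induced peptides, was at 1.77. The negative regulator gene PGRP-LB was lower (-0.23) but was not called with library size alone.

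The Turandot genes, which encode small secreted proteins induced by stress and infection, had a median of 3.01 on the log2 scale. All 5 tested were called higher against control and against the libraries labelled fru RNAi, in a list drawn up after values had been seen. TotA had 72.3 and 61 in control and 487 and 489 in oeno>fru OE as TMM-rescaled TPM, with a log2 fold change of 2.78 (SE 0.0506, edgeR adjusted p = 2.2e-13). TotC had 52.9 and 44.4 in control and 420 and 417 in oeno>fru OE (3.01), and TotM went from 22 and 4.69 to 236 and 244 (4.22), although its control libraries differed several-fold. TotX rose by 1.40. In melanization, 15 of 17 genes were called higher and 0 lower, with a median of 0.50, led by the CLIP protease gene ea (1.41) and with ple, for the tyrosine hydroxylase of pigment synthesis, at 0.65, yellow-f2 at 0.59 and MP1 at 0.58. Against the libraries labelled fru RNAi 6 of the list were higher and 2 lower.

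Many detoxification genes rose. Of 31 glutathione S-transferase genes 20 were called higher and 5 lower (median 0.68). GstS1 had TMM-rescaled TPM values of 91.1 and 92.5 in control and 1270 and 1262 in oeno>fru OE, a log2 fold change of 3.68 (SE 0.0197, edgeR adjusted p = 5.29e-18). In the libraries labelled fru RNAi GstS1 was 91 to 226, so the overexpression libraries stood far above both references. GstD2 went from 2.1 and 1.77 to 29.5 and 30.2 (3.84) and GstD1 from 259 and 260 to 712 and 716 (1.35), with GstD5 at 2.43 and GstE2 at 2.10. Of 23 UDP-glycosyltransferase genes 13 were called higher and 3 lower (median 0.78), with Ugt50B3 at 2.84, Ugt37B1 at 2.66, Ugt37A3 at 2.03 and Ugt316A1 at -1.33. These enzymes conjugate foreign and internal compounds, and their genes mostly rose from low levels.

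Of 78 P450 genes 46 were called higher and 12 lower (median 0.44). The summed TMM-rescaled TPM of the family, of which Cyp4g1 makes up most, was 55128 and 55483 in control and 42311 and 42571 in oeno>fru OE. Cyp9f3 rose from 2.73 and 3.12 to 20.4 and 23.8 (2.79) and Cyp4d20 from 8.89 and 7.51 to 59.3 and 56 (2.69). Cyp313a3 was at -3.33. Cyp12d1-d fell from 26.2 and 25.1 to 0.358 and 0.221 (-6.64) while its near-identical neighbour Cyp12d1-p rose by 1.05, so that both estimates are uncertain. Cyp12d1-d did not differ by the test from the libraries labelled fru RNAi, but these spanned 0 to 158 as TMM-rescaled TPM. The libraries of a single hairpin were at 158 and 154, above control, and those of the other hairpins at 0 to 0.221. A test against the mean of such unlike genotypes cannot show likeness to each of them. Against the libraries labelled fru RNAi the P450 calls were even, with 28 higher and 30 lower, the UDP-glycosyltransferases had 5 higher and 7 lower, and the glutathione S-transferases had 16 higher and 11 lower. Over all genes in that comparison 28.6% were called higher and 36.1% lower.

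Heat shock and chaperone genes were called higher in 14 and lower in 3 of 20 (median 0.73). Hsp26, a small heat shock gene, had 288 and 295 in control and 794 and 785 in oeno>fru OE as TMM-rescaled TPM (1.32), and Hsp23 was at 1.23. Hsp70Bbb had 30.9 and 25.9 in control and 250 and 250 in oeno>fru OE (3.02), but Hsp70 copies are nearly identical and the estimates may be divided among them. In the oxidative stress and metal list 12 of 23 were lower and 7 higher, beside 33.7% and 31.4% of all genes tested. MTF-1, the metal-responsive transcription factor gene, was at -1.44 and the oxidase gene Nox at -2.58.

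Several genes that promote cell death were lower than in control. Of 16 apoptosis genes 8 were called lower and 3 higher, with a median of -0.53. reaper (rpr) had TMM-rescaled TPM values of 9.22 and 9.21 in control and 0.358 and 0.736 in oeno>fru OE, a log2 fold change of -4.08 (SE 0.245, edgeR adjusted p = 1.88e-08). The other inducer gene hid had 11.6 and 10.9 in control and 2.94 and 3.77 in oeno>fru OE (-1.94), and grim was not called. The tumour necrosis factor gene eiger (egr) had 31.2 and 31.6 in control and 3.6 and 3.65 in oeno>fru OE (-3.24), and the Bcl-2 family gene Debcl had 185 and 190 in control and 46.8 and 42.5 in oeno>fru OE (-2.20). p53 had 44 and 43.5 in control and 10.6 and 9.57 in oeno>fru OE (-2.20). The libraries labelled fru RNAi were low as well, with 0.267 to 2.57 for rpr, 2.81 to 7.44 for egr and 8.52 to 13.9 for p53. For these 3 genes control was the group that stood apart, with both its libraries above all others. The inhibitor gene Diap1 rose by 0.30.

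Among sex determination genes tra2, whose product directs the sex-specific splicing of doublesex and fruitless, fell from 122 and 124 to 17.8 and 16.4, a log2 fold change of -3.03 (SE 0.0415, edgeR adjusted p = 1.65e-14). The libraries labelled fru RNAi lay between, at 35.9 to 82.8. dsx rose by 0.64, and tra was not called. Sxl was at 0.13 but was not called without control replicate 1 (0.09) or without oeno>fru OE replicate 1 (0.07). The female-biased fat body gene fit rose from 2.49 and 0.854 to 12.9 and 12.6 (2.88), although its control libraries differed several-fold, and the yolk protein gene Yp1 by 0.58. Over the 19 genes of the list 8 were higher and 6 lower, beside 31.4% and 33.7% of all genes tested. Of 20 BTB-domain transcription factor genes 6 were higher and 9 lower. fru was the largest change, followed by mamo at 1.31, ken at -1.20 and ab at 0.91.

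Transcription factors and clock genes of the other lists changed by less than 4-fold, apart from the clock output gene takeout (to) at 2.22. Over all genes tested 33.7% were called lower and 31.4% higher, and the counts of these lists are set beside those shares. Of 17 nuclear receptor genes 7 were called lower and 4 higher (median -0.27), Hnf4 being followed by usp, for the partner of the ecdysone receptor, at -0.75. knrl and kni rose by 0.95 and 0.85. Among the genes of abdominal identity and oenocyte fate 7 of 13 were lower and 5 higher, with salr at -1.03, exd at -1.01, hry at -0.89 and hth at 0.91, while svp, an oenocyte marker, rose by 0.16. In the circadian clock 7 of 13 were lower and 5 higher, and the median of -0.12 turned positive with library size alone and with limma. timeless (tim) had 34.4 and 32.8 in control and 94.8 and 92.3 in oeno>fru OE (1.34), dco, for a clock kinase, was at -0.75, and the photoreceptor gene cry had 143 and 141 in control and 86.6 and 83.2 in oeno>fru OE (-0.87).

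Growth and energy genes moved modestly. Glycolysis and sugar storage genes were called higher in 22 and lower in 2 of 31 (median 0.35), with Ldh at 1.06, Pgm1 at 0.98 Hex-C at 0.97 and the glycogen branching gene AGBE at -1.07. In insulin and growth signalling 14 of 24 were lower and 5 higher, the insulin receptor gene InR rising by 0.81 and ImpL2, for a secreted insulin antagonist, at -0.82. Pi3K92E, for the catalytic kinase subunit of the pathway, was at -1.02 and its negative regulator Tsc1 at -0.97. Cytosolic ribosomal protein genes were higher in 64 and lower in 15 of 92, with a median of 0.12. Their extremes were RpS10a at -2.09, RpS5b at 0.92, RpS29 at 0.82 and RpL21 at 0.63, of which RpS5b was not called by DESeq2 (adjusted p = 0.0506). Mitochondrial ribosomal protein genes were higher in 25 and lower in 11 of 73, with a median of 0.11. Proteasome genes were divided, 10 higher and 16 lower of 48, beside 31.4% and 33.7% of all genes tested. The members Rpn6 and Rpn5 were at -0.96 and -0.56, and the variant genes Prosalpha1R and Rpt3R at 0.89 and -0.62.

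Cuticle protein genes gave 14 higher and 12 lower of 60, with 6 lower DEGs and 0 higher. Cpr49Ac was at -2.24 but was not called by DESeq2 (adjusted p = 0.105), and the adult cuticle gene Acp1 fell from 290 and 283 to 2.86 and 2.35, a log2 fold change of -6.92 (SE 0.0614, edgeR adjusted p = 3.48e-16). Acp1 was below control in the libraries labelled fru RNAi too, at 5.31 to 23.3 as TMM-rescaled TPM. Odorant-binding protein genes gave 12 higher and 3 lower of 24, with Obp56d going from 7.83 and 9.29 to 102 and 103 (3.47) and Obp99b from 323 and 344 to 134 and 135 (-1.41), and Obp56f, with 13 and 17 counts in control, had none in oeno>fru OE and was at least 5.22-fold lower. Obp56a was at 2.07 and Obp19d at 1.41. Of 6 innexin genes, for gap junction channels, 3 rose and 2 fell, with shakB at 0.82, ogre at 0.70 and Inx3 at -0.98. Inx7 was lowest at -2.75, and the libraries labelled fru RNAi did not differ from it by the test (0.848 to 2.42 against 2.1 and 1.74 as TMM-rescaled TPM). Serpin and Turandot genes gave 16 higher and 5 lower of 26. Histone genes gave 9 higher and 3 lower of 27, of which many are identical copies with divided estimates.

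**Figure D4:**
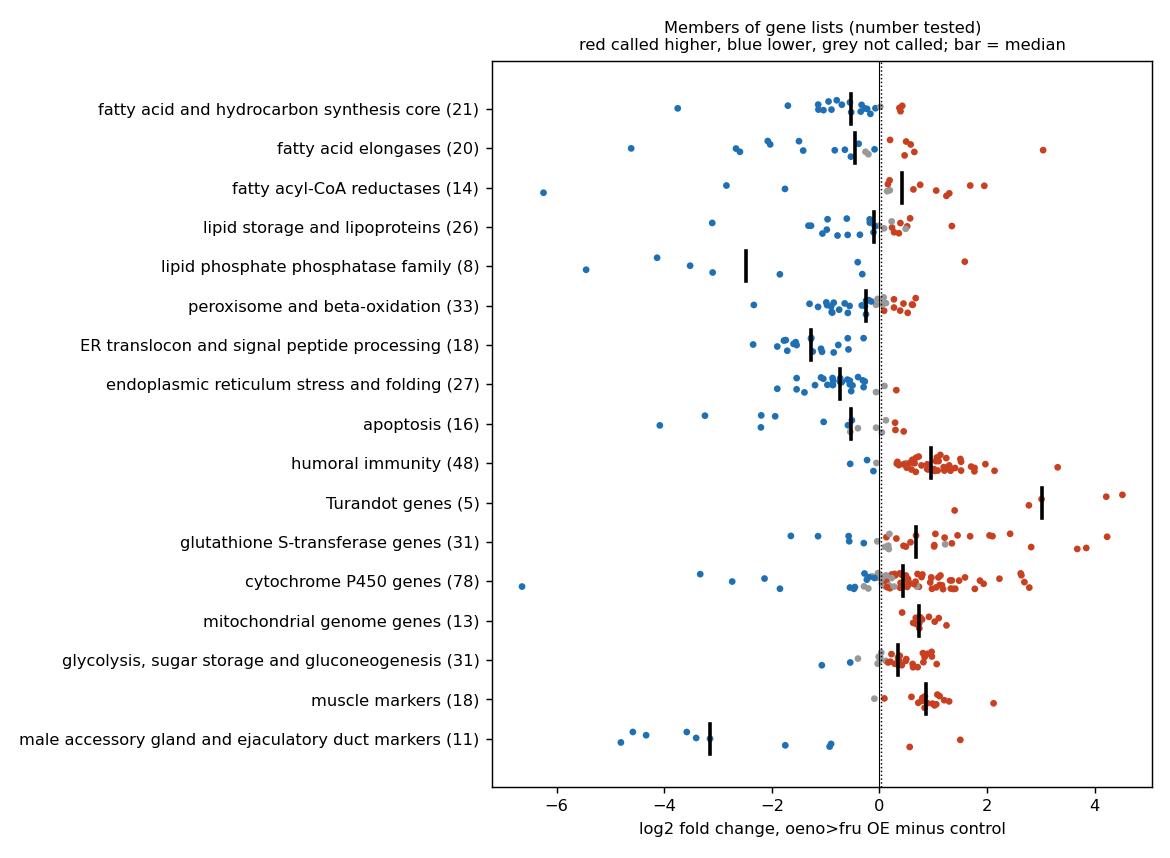
Log2 fold change of the tested members of 17 gene lists in oeno>fru OE against control, red where called higher, blue where called lower and grey where not called, with a bar at each median and a dotted line at the median of all genes, 0.04. The endoplasmic reticulum lists lie to the left of 0 with few exceptions, and the humoral immunity, Turandot and mitochondrial genome lists to the right. The lists for endoplasmic reticulum translocation and Turandot genes were drawn up after values had been seen.

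DEGs were found on every large chromosome arm. The share of tested genes that were lower DEGs was 3.36% on 2R, 3.35% on 3R, 2.9% on 3L, 2.2% on X and 1.88% on 2L. In 14 places at least 3 neighbouring tested genes were DEGs in the same direction, 10 of them lower and 4 higher. On 2R, between 24940625 and 24955677, 5 genes were lower. CG3770 fell furthest, from 1079 and 1075 to 7.74 and 7.48 as TMM-rescaled TPM (-7.27), and Tina-1 fell from 1543 and 1567 to 120 and 117 (-3.82). CG15861 (-4.49), CG2790 (-2.46) and CG12851 (-5.05) completed the run, while the next genes were CG2811 (1.15) on one side and CG2765 (-1.82) on the other. Some of these genes overlap, so reads may be shared. On 3L, between 22458816 and 22473509, the lipid phosphate phosphatase genes laza (-5.45), CG11438 (-4.13), CG11437 (-3.52) and CG11426 (-3.10) lay side by side, with CG11425 of the same family next to them and higher (1.59). Against the libraries labelled fru RNAi, laza was lower by far (-4.72), while CG11438 was at -0.87, CG11437 at -0.21 and CG11426 at -0.03 (not called).

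Around sad on 3R, CG6959 (-4.33) and CG6962 (-4.37) were lower too, and CG6962 overlaps sad. Further along 3R, Sulf1, for an extracellular heparan sulfatase, went from 129 and 127 to 2.79 and 3 (-5.62), beside CG6901 (-4.77), CG17929 (-8.01) and CG17930 (-5.83). CG6136 (-5.64) and Ccm3, whose mammalian relative acts in vascular development, overlap, and Ccm3 had 1051 and 1086 in control and 60.1 and 59 in oeno>fru OE (-4.29), with Rbp (-2.07) next to them. The cuticle genes Ccp84Ag, Ccp84Af and Ccp84Ae formed a run, in which Ccp84Ag had 145 and 148 in control and 3.34 and 3.5 in oeno>fru OE (-5.53). On 2R, CG44251, CG44250 and CG13321 were lower, with CG44250, which overlaps CG44251, at 185 and 177 in control and 3.11 and 5.88 in oeno>fru OE. The lower runs also included CG31872, CG18284 and CG17097 on 2L, and the accessory gland genes Acp53C14a, Acp53C14b and Acp53Ea on 2R and CG42481, CG43147 and SP on 3L. Genes of these runs varied widely among the libraries labelled fru RNAi. CG17097 was at 0.682 to 7.51 there, Acp53C14a at 4.06 to 27.8 and SP at 6.92 to 63. Their control levels were 1.2 and 1.49, 7.07 and 6.37, and 12.7 and 8.36.

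The Turandot genes TotA, TotC and TotB formed 1 of the 4 higher runs, in which TotB had 0 and 0.175 in control and 2.54 and 2.71 in oeno>fru OE as TMM-rescaled TPM, far below the other two. The run of 5 genes from CG14096 to CG18294 on 3L ranged from 2.32 to 3.20 on the log2 scale. salt and Smvt, for sodium-dependent solute transporters, and CG2187 between them were higher on 3R, with Smvt going from 0.301 and 0.262 to 3.13 and 3.27 (3.38). CG10553, CG10560 and CG10562 were higher against control, and CG10560 did not differ by the test from the libraries labelled fru RNAi (2.32 against control).

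**Figure D5:**
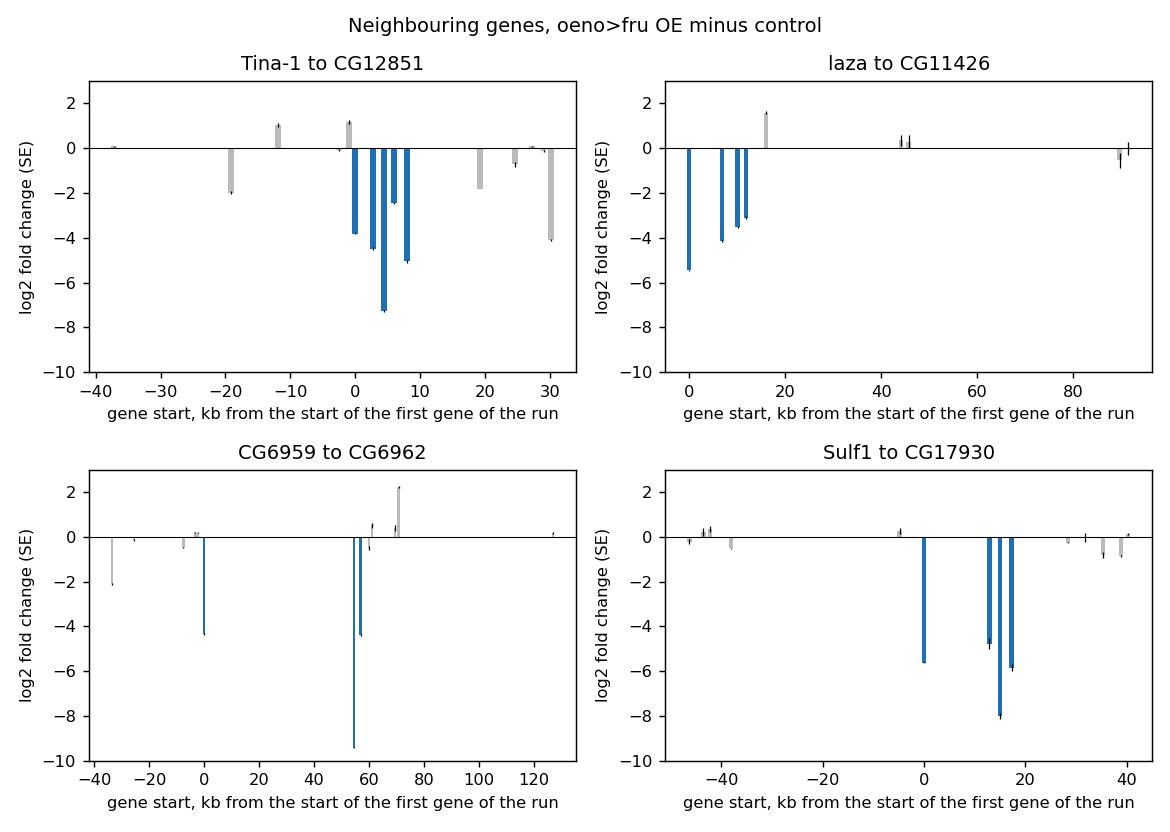
Log2 fold change (oeno>fru OE minus control) with SE for genes in 4 runs of neighbouring lower DEGs (blue) and for up to 5 tested genes on either side (grey), by distance of the gene start in kb from the first gene of the run, within 60 kb before and 130 kb after it. CG3770, laza, sad and CG17929 are the lowest in their runs, and the grey gene directly after the laza run, CG11425, is higher than control.

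Markers of other tissues also moved, and their part in the results above was not tested. Oenocyte markers were called lower in 10 and higher in 2 of 12 (median -0.60), 5 of them as DEGs with sad the lowest. Their summed TMM-rescaled TPM was 63253 and 63626 in control and 44903 and 45160 in oeno>fru OE, most of it from Cyp4g1. Muscle markers were higher in 17 of 18 (median 0.87), with sums of 2014 and 2026 in control and 3727 and 3659 in oeno>fru OE. The range of that sum in the libraries labelled fru RNAi was 2279 to 3727. Among sarcomere genes 26 of 31 were higher and 3 lower, with Prm, for paramyosin, at 1.30, the flight muscle actin gene Act88F at 2.12, tn at 1.49 and Strn-Mlck at -2.01. Neuron markers were higher in 7 of 8, with sums of 5.18 and 5.14 in control and 9.89 and 10.1 in oeno>fru OE. Testis markers were higher in 8 of 10, with sums of 711 and 722 in control and 1003 and 1014 in oeno>fru OE, and Malpighian tubule markers in 5 of 6, with sums of 5.45 and 5.25 in control and 17.8 and 19.8 in oeno>fru OE.

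Gut markers were higher to an extent that differed between the overexpression libraries. Gut markers were higher in 10 of 21 with sums of 116 and 153 in control and 303 and 451 in oeno>fru OE, and the protease gene Jon25Biii had 5.93 and 6.27 in control and 8.1 and 34.3 in oeno>fru OE, high in 1 overexpression library. Jon99Fi had 1.46 and 1.42 in control and 2.93 and 24.7 in oeno>fru OE and gammaTry 0 and 1.57 in control and 3.17 and 3.77 in oeno>fru OE. Without oeno>fru OE replicate 2, Jon99Fi was still called at 0.93 (edgeR adjusted p = 0.0313), while Jon25Biii was at 0.29 (edgeR adjusted p = 0.18), Jon99Fii at 0.23 (edgeR adjusted p = 0.561) and gammaTry at 1.79 (edgeR adjusted p = 0.0689), and none was called. Of 25 Jonah and trypsin protease genes tested, 15 were called higher than control and 0 lower, and 0 were called in either direction against the libraries labelled fru RNAi.

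Accessory gland and ejaculatory duct markers were lower in 9 of 11 and higher in 2, with a median of -3.15, or -1.99 with members of at most 3 counts per library in a group set at that floor. SP, the sex peptide gene, had 12.7 and 8.36 in control and 1.8 and 0.378 in oeno>fru OE, and Acp26Ab had 5.76 and 4.21 in control and 0.536 and 0 in oeno>fru OE. The ratio of counts, control over oeno>fru OE, was 11.2 for SP with an exact 95% interval of 4.07 to 43.2, and 30.4 for Acp26Ab with an interval of 10 to 150. The summed level of the list was 89.6 and 88.3 in control and 94.7 and 102 in oeno>fru OE, with the esterase gene Est-6 at 0.56, and did not fall. Nephrocyte markers were lower in 4 of 5, with sums of 64.3 and 65.5 in control and 6.41 and 6.21 in oeno>fru OE, most of it from Amnionless, for an endocytic receptor subunit, which went from 53.8 and 55.2 to 2.16 and 2.07 (-4.87). The sum of hemocyte markers, 587 and 592 in control and 112 and 106 in oeno>fru OE, followed the CD36 family scavenger receptor gene crq, at 556 and 567 in control and 66.7 and 65.2 in oeno>fru OE (-3.07), while the defining markers Hml and NimC1 were low, with means of 0.985 and 0.456 in control, and were at 0.82 and 0.82. NimC1 was not called without control replicate 2 (0.63) or without oeno>fru OE replicate 1 (0.66). The sum of glia markers, 100 and 106 in control and 12.4 and 11.6 in oeno>fru OE, followed moody, at 98.9 and 105 in control and 11.2 and 10.6 in oeno>fru OE (-3.34), and the defining marker repo was low, at 0.291 and 0.34 in control and 0.757 and 0.715 in oeno>fru OE. Fat body markers had sums of 1311 and 1327 in control and 434 and 412 in oeno>fru OE, with Lsd-1 and Obp99b making up most of them, and trachea markers had sums of 9.74 and 10.3 in control and 12.6 and 13.3 in oeno>fru OE. The epidermis list had 1 testable gene.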

How the data were processed

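Oenocytes of 7-day-old males were sequenced as poly(A) RNA (NEBNext Ultra II). The submitters' notes name fastp 0.22.0, Bowtie2, RSEM 1.2.31 and edgeR 3.36.0, and the study's methods name dme6 as the reference. Bowtie2's version and whether counting used strand are not given in the sources used here. The authors deposited 3 matrices per gene: RSEM expected counts, not normalized, of which 16.4% were not whole numbers, TPM values, and TPM values that the authors rescaled by TMM, a trimmed-mean scaling between samples. Expected counts were rounded to whole numbers here, filtered with filterByExpr (minimum count 10, total 15), scaled by TMM and tested with edgeR 4.0.16 (quasi-likelihood, R 4.3.3) on the 4 libraries. The comparison with the libraries labelled fru RNAi was taken from a fit of all 10. The calls used adjusted p-values below 0.05, and DEGs adjusted p-values below 0.001 and a 4-fold change. Levels are the deposited TMM-rescaled TPM, a different scale from the edgeR log2 fold changes, and small changes can differ in sign between them. Fitted changes of genes with few counts depend on edgeR's default prior count.

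Alternatives used DESeq2 1.42.0, limma 3.58.1 on log2 values plus 1 or 0.1, library size alone, other filters, a replicate block, and leaving out each library. The scripts were tested on simulated data. Tables and figures used Python 3.11.15, pandas 2.3.3, numpy 2.4.6 and matplotlib 3.10.9. Symbols and positions of 13983 of 13986 identifiers came from the Ensembl BDGP6 annotation, whose release may differ from the authors'. Counting intervals and the floor of 3 counts cover counting error only.

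The comparison and the gene lists were chosen with earlier results of these data known. Named genes were fru, the 8 largest rises and falls among DEGs whose higher group averaged 50 counts or more, the 6 largest gains and losses of level, up to 4 called members per list, and runs of at least 3 neighbouring DEGs. A few results on named genes are not reported here. Further genes were named after their values had been seen. Levels of fru include reads from the transgene.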

Additional observations from a re-analysis of the deposited data

How the results depend on the processing

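Without each library in turn, DEGs numbered 130 to 149 higher and 305 to 313 lower, genes called 3199 to 3311 higher and 3656 to 3792 lower, and fru was at 4.31 to 4.34 on the log2 scale. A library left alone in its group was assumed to vary like the other group. With limma on TMM-rescaled TPM plus 1, a scale that compresses changes of low genes, 80 genes were higher and 202 lower by the DEG criteria. With library size alone 4882 genes were called higher and 3096 lower, and 44 genes called in both fits had the other sign, but no DEG did. Of 3025 values of 255 named genes under the alternatives, 2977 kept their direction and call, 41 lost the call and 7 changed sign. These were ACC, at 0.10 with library size alone and at 0.06 with limma plus 1 and plus 0.1, FASN1, at 0.01 with library size alone, and Lsd-2, at 0.09 with library size alone and at 0.04 with limma plus 1 and plus 0.1. Leaving out 1 library ended the calls of Jon99Fii, gammaTry, Jon25Biii, Desat2, Lsd-2, NimC1, Sdic2 and Sxl. The median of the proteasome genes turned positive with library size alone, limma and without control replicate 2, that of the innexins negative with DESeq2 and without a filter, and that of the fat body markers negative with at least 10 counts in each library and without oeno>fru OE replicate 1. The cause was not tested.

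Control and oeno>fru OE share replicate numbers, but same-numbered libraries correlated at 0.082 in their deviations from the group means over 11601 genes, and no label links them. With the replicate number as a block, 174 DEGs were higher and 335 lower, with 3709 genes called higher and 3936 lower, and all 479 DEGs were shared.

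With 2 libraries per group and 1 overexpression genotype, insertion, background, the GFP transgene of control and FruCOM cannot be told apart. Cell number and RNA per cell cannot be told apart either. Genes under about 50 counts carry wide counting intervals.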
